A study of Capra hircus with 12 samples.

Results

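The loci described here are abundant transcribed regions of the black goat (Capra hircus) testis that the transcript assembler named and that could not be tied to a known gene here. They were chosen as loci with an identifier of the form MSTRG.n, with n in the lower range of numbers (the highest listed there is 404906), whose FPKM averaged 20 or more over the 11 libraries. FPKM is fragments per kilobase of locus, scaled to library size. Of 24116 loci listed, 21782 were MSTRG loci in that range, and 37 met the rule once MSTRG.335283, MSTRG.178147, MSTRG.385323 and MSTRG.198760 were set apart. Another 45 loci with a gene-number identifier and 14 MSTRG loci with higher numbers also averaged at least 20 FPKM. None of the listed identifiers (0 of 24116) matched the RefSeq gene table of assembly ARS1.2, so the 37 loci have no symbol, position, strand or coding status here, and no sequence is printed.

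The groups were wild-type (WT) testes at 4 ages: neonatal (titles D3, 3 libraries), prepuberty (D30, 3), puberty (D90, 2, replicates 2 and 3) and postpuberty (D180, 3). All were total RNA from testis, and the labels name no treatment. Puberty replicate 1 was not analysed here. No label ties a replicate to an animal of its own, and the p-values below reflect only how far these samples spread, which may be technical. Reads recovered from the FPKM steps put the library totals used for scaling between 19128357 and 35614224, lowest in a neonatal and highest in a puberty library. The tissue label could not be checked against marker genes, since the loci have no symbols.

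In the neonatal testis, seminiferous cords hold Sertoli cells and gonocytes, the precursors of spermatogonia. Meiosis starts as puberty approaches, and spermatocytes and then spermatids come to make up much of the organ. These germ cells are known for a broad transcriptome with many testis-restricted and long non-coding RNAs. StringTie gives the prefix MSTRG to a locus it assembled from reads, and such a locus may be a known gene, a non-coding RNA or part of either. In whole tissue, fewer cells of a type and less RNA per cell cannot be told apart.

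The values that chose the loci were the means over all 11 libraries, which ran from 20.5 FPKM for MSTRG.327137 to 1668 for MSTRG.180257. Just inside the threshold lay MSTRG.282793 (21.5), MSTRG.161852 (20.6) and MSTRG.327137, and just outside it MSTRG.98065 (19.7), MSTRG.337007 (19.7) and MSTRG.226209 (19.5). The rule favours loci that are very high at some ages: 30 members averaged 20 or more in the 5 older libraries (puberty and postpuberty) but not in the 6 younger ones. The reverse held for 1 member, and 6 reached 20 at both. For those 30, and for the 1 that passed through its younger libraries (MSTRG.161852), a difference between younger and older testes follows largely from the choice. The counts, ratios and p-values below for that difference describe the loci and support nothing about the set. Implied lengths, obtained with the reads, ran from 202 to 55664 bases with a median of 1440, against a median of 2238.5 for the tested loci.

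Most members were nearly absent before puberty and abundant from puberty on, and a small set was already abundant in the neonatal testis. MSTRG.29211 belonged to neither group, with means of 1.99 FPKM in neonatal and 12.1 in prepuberty testes. From prepuberty to puberty, 30 of the 37 rose and 3 fell. A locus was called where its limma adjusted p (Benjamini-Hochberg over 12954 loci) was under 0.05 and its log2(FPKM + 1) differed by 1 or more between ages. Among all loci tested, 23.7% were called higher and 13.0% lower. These shares depend on the scaling. They were 34.1% and 7.71% with median of ratios, and 21.0% and 20.8% with quantile normalization. They were 20.8% and 22.1% with the sum without the 4 highest loci, and 47.4% and 25.7% with TPM. The 4 highest loci were MSTRG.335283, MSTRG.178147, MSTRG.385323 and the member MSTRG.180257. Both that sum and TPM scale to the summed FPKM of the listed loci. By reads, these loci held only 13.7% (puberty replicate 3) to 25.6% (neonatal replicate 3) of a library's scaling total. Libraries did not overlap between these ages for the same number of higher members (30, against 48.4% of all loci) and for 5 lower ones (36.8%). The median log2 change was 5.25 for the members and 0.26 for all tested loci. From neonatal to postpuberty testes, 30 members were called higher and 6 lower, beside 37.6% and 17.7% of all loci. All 37 members passed the filter on low values.

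**Figure D1:**
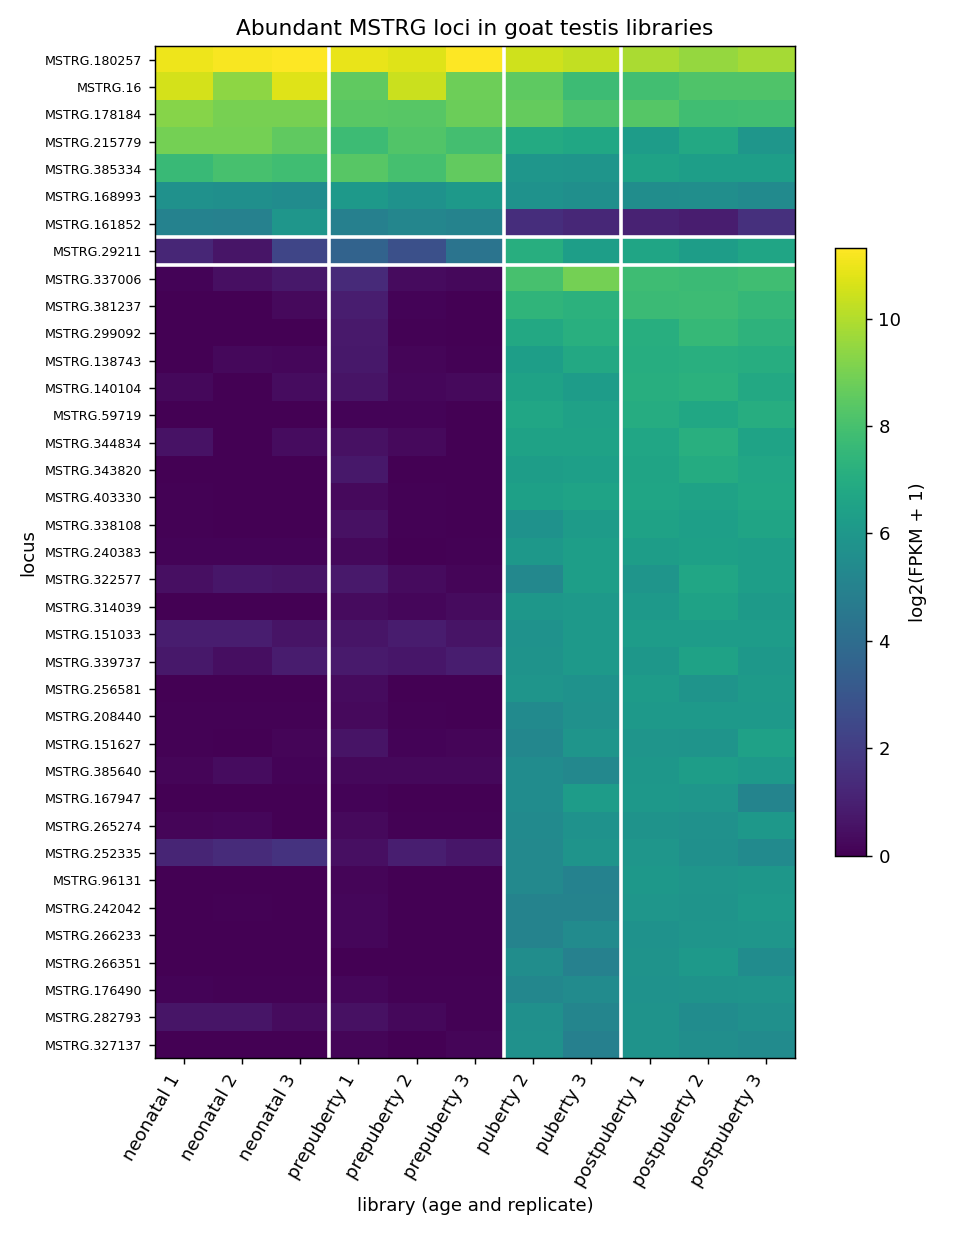
Level of each of the 37 loci (vertical axis) in each of the 11 libraries (horizontal axis), as log2(FPKM + 1) on the colour scale. The 7 loci of the top block were abundant in the younger libraries, MSTRG.29211 is set apart below them, and the 29 loci of the bottom block stayed at or under 2.18 FPKM in every younger library and at or above 29.01 in every older one.

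MSTRG.180257 (implied length 3429 bases) was the most abundant member at every age. Its FPKM was 2099.6, 2344 and 2496 in the neonatal libraries, 1946, 1711 and 2532 in prepuberty, 1422 and 1237 in puberty, and 943, 725 and 888 in postpuberty. All 3 postpuberty libraries lay below both puberty libraries, and both puberty libraries below every younger one. From neonatal to postpuberty testes its mean was 2.72-fold lower, from 2313 ± 200.1 (SD, n = 3) to 852 ± 114 (n = 3). The log2 change was -1.45 ± 0.19 (SE), with a limma adjusted p of 2.93e-05. It was no longer called with median of ratios scaling (-0.96) or TPM (-0.39), and the sign turned under quantile normalization (0.74). Quantile normalization sets values by rank, and the locus moved from rank 4 in every younger library to rank 3 in every older one. The steps into puberty (log2 change -0.62, limma adjusted p = 0.0207) and after it (-0.65, limma adjusted p = 0.0696) were not called. With the sum without the 4 highest loci the puberty step was called lower (-1.11, limma adjusted p = 0.00143), and with quantile normalization its sign turned (0.74). MSTRG.180257 is itself among those 4 loci, so that sum leaves it out.

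MSTRG.215779, a short locus with an implied length of 202 bases, had a lower mean at each later age. It stood at 487, 486 and 375 FPKM in neonatal, 211, 297 and 245 in prepuberty, 118 and 106 in puberty, and 74.4, 112 and 60.7 in postpuberty libraries. Neonatal, prepuberty and puberty values did not overlap, whereas puberty and postpuberty did. The mean was 2.24-fold lower in puberty than in prepuberty (log2 change -1.14 ± 0.26 SE, limma adjusted p = 0.00202) and 5.45-fold lower in postpuberty than in neonatal testes (limma adjusted p = 2.15e-06). The puberty change was not called with median of ratios scaling (-0.56) or with TPM (-0.83). The earlier difference, from 449 ± 64.5 to 251 ± 43.1 FPKM, had a limma adjusted p of 0.0428 but a log2 change of -0.84, short of a call.

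MSTRG.385334 fell at puberty from its highest mean, in prepuberty. Its values were 200.2, 256 and 228 FPKM in neonatal, 331, 247 and 386 in prepuberty, 60.2 and 59.2 in puberty, and 91.2, 80.5 and 81.0 in postpuberty libraries. No older library reached a younger one. Neonatal and prepuberty values overlapped, and the change between them (log2 0.47, limma adjusted p = 0.129) was not called, though it was with TPM (1.23). The fall at puberty was 5.38-fold, from 321 ± 70.2 (SD, n = 3) to 59.7 ± 0.676 (n = 2), with a log2 change of -2.38 ± 0.20 (SE) and a limma adjusted p of 2.11e-06. All 3 postpuberty values were above both puberty values, but the change (log2 0.49, limma adjusted p = 0.136) was not called. The fall from neonatal to postpuberty testes was called (log2 change -1.42, limma adjusted p = 2.02e-05), but not with median of ratios scaling (-0.94) or TPM (-0.37). Its number lies 11 above that of MSTRG.385323, one of the loci set apart by the rule.

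MSTRG.161852 (7144 bases) had the largest fall of any member. It passed the rule through its younger libraries only, so that fall follows largely from the choice. It held 31.2, 30.7 and 60.9 FPKM in neonatal, 29.7, 35.1 and 31.8 in prepuberty, 1.75 and 1.39 in puberty, and 1.14, 0.846 and 1.99 in postpuberty libraries. The older libraries all lay under 2 FPKM and the younger ones near or above 30. The mean was 20.5-fold lower in puberty than in prepuberty (log2 change -3.69 ± 0.29 SE, limma adjusted p = 1.36e-06) and 30.8-fold lower in postpuberty than in neonatal testes (limma adjusted p = 1.23e-07). Neonatal replicate 3 stood well above the other neonatal libraries, and the neonatal mean was 40.9 with an SD of 17.3 (n = 3).

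MSTRG.16 (673 bases) varied most between replicates in the younger libraries among the loci abundant there. Neonatal libraries held 1508, 669 and 1722 FPKM and prepuberty libraries 375, 1367.5 and 442, coefficients of variation of 42.8% and 76.2%. Puberty libraries held 359 and 212 and postpuberty libraries 232, 292 and 288. The neonatal and prepuberty libraries thus overlapped, and the 5 older libraries lay under all of them. The locus was 4.80-fold lower in postpuberty than in neonatal testes (log2 change -2.15 ± 0.48 SE, limma adjusted p = 0.00157). That call ended with TPM (-1.10, limma adjusted p = 0.0539). At puberty the log2 change of -1.14 was not called (limma adjusted p = 0.0753), and it ran from -1.52 to -0.56 with 1 library left out. It was called without prepuberty replicate 1 (-1.49, limma adjusted p = 0.0345), and was weakest without prepuberty replicate 2. It was also called with quantile normalization (-1.34, limma adjusted p = 0.00819) and with the sum without the 4 highest loci (-1.63, limma adjusted p = 0.0171).

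MSTRG.178184 (991 bases) held 611, 513 and 509.9 FPKM in neonatal, 340.2, 329 and 441 in prepuberty, 398 and 286 in puberty, and 320.02, 231 and 232 in postpuberty libraries. The neonatal libraries lay above all others, and each later age overlapped the next. It averaged 544 ± 57.3 FPKM (SD, n = 3) in neonatal testes and 369.9 ± 61.8 (n = 3) a step later. Puberty testes averaged 342 ± 79.5 (n = 2), and postpuberty testes 261 ± 51.0 (n = 3). Only the span from neonatal to postpuberty was called (log2 change -1.07, limma adjusted p = 0.000429). That call is at the edge of the fold limit. The log2 change was -0.98 without neonatal replicate 1, and -0.99 without postpuberty replicate 2 or 3. It was also not called under median of ratios scaling (-0.58), quantile normalization (-0.99) or TPM (-0.01). Its number lies 37 above that of MSTRG.178147, another locus set apart by the rule.

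MSTRG.168993 (2491 bases) was the member with the smallest range of age means, 0.46 on the log2 scale. The libraries held 51.0, 48.2 and 44.1 FPKM in neonatal, 67.4, 52.5 and 66.4 in prepuberty, 53.5 and 48.4 in puberty, and 45.8, 46.8 and 41.5 in postpuberty testes. Each prepuberty value lay above every neonatal one, by a narrow margin in replicate 2, and each postpuberty value lay below both puberty values. It was the 1 member not called by the F test over the 4 ages. That test called 36 of 37 members and 65.3% of all loci. A call needed an adjusted p under 0.05 and a range of age means of 1 or more on the log2 scale. For MSTRG.168993 the limma F test adjusted p was 0.0412, and only the range fell short. With quantile normalization it was called lower at puberty (log2 change -1.06) and lower in postpuberty than in neonatal testes (-1.64, limma adjusted p = 4.53e-06, against -0.09 as deposited). With TPM it was called higher in prepuberty than in neonatal testes (1.12). With median of ratios scaling it was not called at puberty (0.31, limma adjusted p = 0.166). Nor was it called there from neonatal to postpuberty testes (0.38, limma adjusted p = 0.0589). Its small range thus depends on the scaling.

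**Figure D2:**
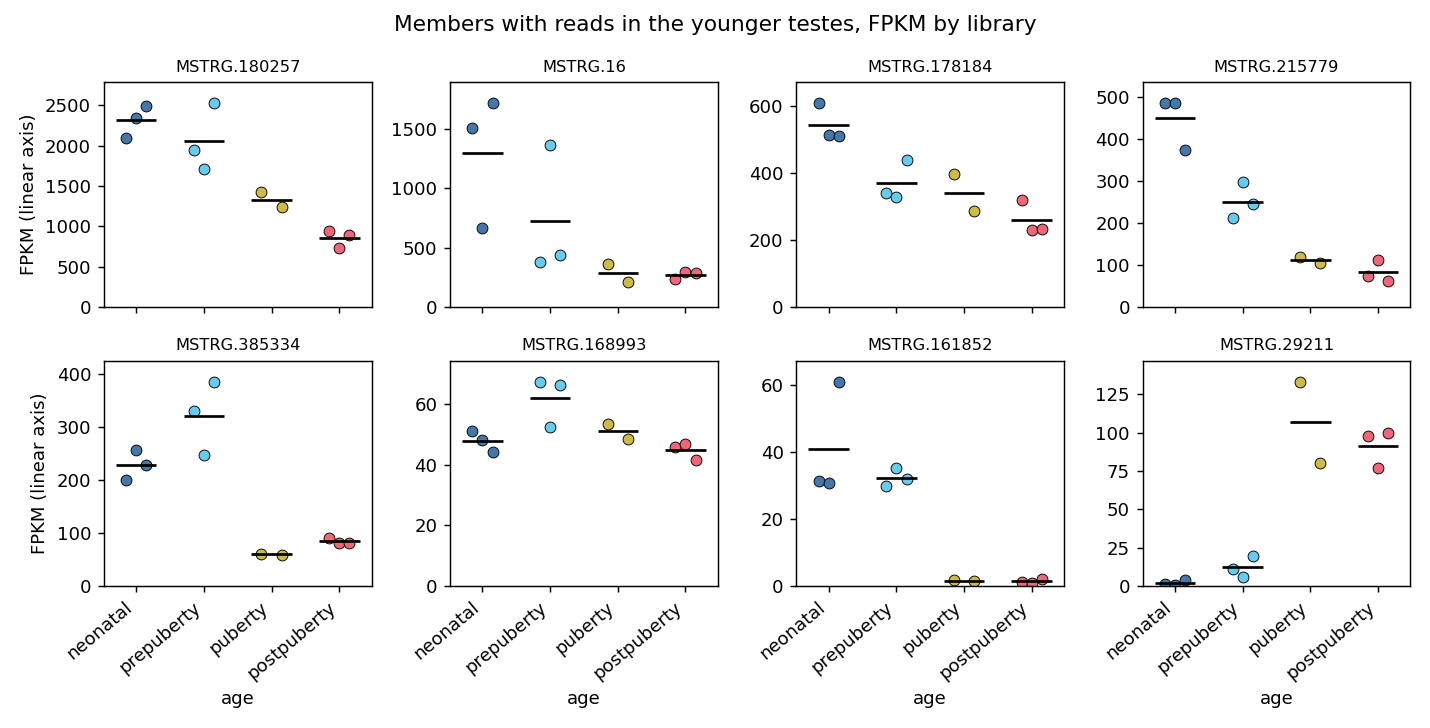
FPKM (vertical axis, linear, from 0) by age (horizontal axis) for the 7 members abundant in young testes and for MSTRG.29211. Each point is a library and each bar the mean of its age; MSTRG.161852 is under 2 FPKM in all 5 older libraries, and MSTRG.168993 stays between 41.5 and 67.4 throughout.

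Few members were called between neonatal and prepuberty testes. MSTRG.29211 was the 1 member of 37 called higher, where 0.826% of all loci were called higher and 1.24% lower. It held 1.34, 0.548 and 4.08 FPKM in neonatal, 11.2, 5.86 and 19.2 in prepuberty, 133 and 80.5 in puberty, and 97.7, 77.1 and 99.6 in postpuberty libraries. Each age up to puberty lay wholly above the one before it, and the 2 older ages overlapped. The prepuberty rise was 2.18 ± 0.45 on the log2 scale (SE, limma adjusted p = 0.0140) and the puberty rise 3.13 ± 0.50 (limma adjusted p = 0.000231). The first call ended without prepuberty replicate 3 (log2 change 1.79, limma adjusted p = 0.0609) and in a fit restricted to these 6 libraries (limma adjusted p = 0.155). No member was called lower by limma or by limma voom on recovered reads (0 of 37). At an unadjusted p under 0.05, 4 members were higher (5.48% of all loci) and 3 lower (17.0%). Libraries did not overlap for 3 higher members (6.23%) and 3 lower ones (17.4%). Without prepuberty replicate 2, MSTRG.16 was called lower (log2 change -1.56, limma adjusted p = 0.0335).

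The 29 late loci are the members that rose at puberty and averaged under 2 FPKM in prepuberty, a limit set after their values were seen. Together they held 0.104% to 0.121% of the members' summed FPKM in the neonatal libraries and 0.0841% to 0.353% in prepuberty. The share was 43.7% and 54.0% in the puberty libraries and 58.4% to 63.2% in postpuberty. No read was found in any neonatal library for 8 of them, and MSTRG.266351 was without reads in all 6 younger libraries.

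MSTRG.252335, chosen after its values were seen, was the only one of the 29 late loci to reach 1 FPKM in all 3 neonatal libraries, at 1.26, 1.62 and 2.18, with 0.396, 0.961 and 0.595 in prepuberty. Its 3 prepuberty values lay below all 3 neonatal ones. The log2 change of -0.70 was not called (limma adjusted p = 0.0580). It then rose 74.1-fold at puberty, to 48.2 ± 13.1 FPKM (SD, n = 2; limma adjusted p = 3.63e-08).

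MSTRG.337006 (1120 bases) was the late locus with the highest mean and with the largest log2(FPKM + 1) change at puberty, though not the largest ratio of means. It held 0.0870, 0.364 and 0.653 FPKM in neonatal, 1.57, 0.245 and 0.200 in prepuberty, 259 and 487 in puberty, and 223, 210.4 and 228 in postpuberty libraries. The mean was 557-fold higher in puberty than in prepuberty (log2 change 7.83 ± 0.35 SE, limma adjusted p = 2.13e-08). Prepuberty replicate 1 gave 47 of the 60 prepuberty reads, and without it the ratio was 1676-fold. Both puberty values exceeded all postpuberty ones, and the puberty libraries differed strongly from each other. The later change of -0.69 on the log2 scale was not called (limma adjusted p = 0.231). It was -1.14 without puberty replicate 2, -0.23 without puberty replicate 3 and -1.44 with quantile normalization, not called in any of them.

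MSTRG.381237 (462 bases) had the largest log2(FPKM + 1) change from neonatal to postpuberty testes. Its ratio of means was not the largest, since MSTRG.403330 stood 5661-fold higher, on 6 neonatal reads. By reads per total, MSTRG.266233 and MSTRG.96131 had still larger ratios, 118380 and 103308, on 1 neonatal read each. Their 95% exact counting intervals start at 21246.6 and 18541.5. MSTRG.381237 had 2 reads in the neonatal libraries together, all in replicate 3. It held 166 and 155 FPKM in puberty and 208, 213 and 186 in postpuberty libraries. All 3 postpuberty values exceeded both puberty values. From neonatal to postpuberty the ratio of reads per total was 2775, with a 95% exact counting interval of 768 to 22921 that covers counting error only. The log2 change was 7.57 ± 0.21 (SE, limma adjusted p = 4.16e-10), and it was 6.99 at puberty (limma adjusted p = 3.16e-09).

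MSTRG.299092 (840 bases) had no neonatal read. It held 0.711, 0.0467 and 0 FPKM in prepuberty, 113 and 138 in puberty, and 135, 189 and 155 in postpuberty libraries. The older libraries were all above 100 FPKM and the younger ones all under 1. Its postpuberty mean was at least 2651-fold higher than 3 reads spread over the neonatal group would give (limma adjusted p = 4.05e-10).

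MSTRG.138743 (5761 bases) followed the same course with more reads behind it. It held 0.0169 to 0.186 FPKM in neonatal libraries, 0.635, 0.122 and 0.0390 in prepuberty, 79.9 and 112 in puberty, and 133, 141 and 132 in postpuberty. Its mean was 362-fold higher in puberty than in prepuberty (limma adjusted p = 2.41e-09), on 122 prepuberty reads. Of these, 98 came from prepuberty replicate 1, and without it the ratio was 1191-fold. All 3 postpuberty values lay above both puberty values.

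MSTRG.59719 (1173 bases) had no neonatal read and 5 prepuberty reads in all. Its older libraries held 102 and 86.4 FPKM in puberty and 127, 106 and 132 in postpuberty. The puberty mean was 1740-fold above the prepuberty mean (limma adjusted p = 5.49e-10), a ratio that rests on those 5 reads. MSTRG.266351 (850 bases), chosen after its values were seen for having 0 reads before puberty, held 45.0 and 30.5 FPKM in puberty and 55.1, 68.7 and 43.7 in postpuberty, at least 845-fold above what 3 reads over the prepuberty group would give (limma adjusted p = 5.71e-09).

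The other 22 late loci rose by 4.98 (MSTRG.242042) to 6.36 (MSTRG.403330) on the log2 scale at puberty. Means over the older libraries ran from 45.0 FPKM for MSTRG.327137 to 282 for MSTRG.337006, with a median of 68.0 over the 29. MSTRG.96131 and MSTRG.266233 had the most uneven neonatal values together with MSTRG.381237, but on 1 neonatal read each. Every late locus had at least 509 reads in each older library, so counting error was small there. Coefficients of variation among the 3 postpuberty libraries had a median of 11.5% and ran from 0.468% for MSTRG.208440 to 32.1% for MSTRG.167947. The latter held 65.1, 61.4 and 33.7 FPKM in postpuberty.

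Prepuberty replicate 1 stood apart in the trace levels of the late loci. It held a read for 28 of the 29, against 24 and 20 in prepuberty replicates 2 and 3 and 16 to 19 in neonatal libraries. It gave the highest value of the 3 prepuberty libraries for 22 of the 29. As a percent of each locus's mean in the older libraries, its median was 0.425%, with quartiles of 0.295% and 0.556%. The medians of replicates 2 and 3 were 0.0772% and 0.0514%, and those of the neonatal libraries 0.00354% to 0.0640%. The late loci had 1700 reads there, and 432 and 277 in the other prepuberty libraries. Ratios at puberty were recomputed without this library, a choice made after the values were seen. For 21 late loci over 3 prepuberty reads remained, and the ratio grew by over 1.5 times for 16 of them and shrank by that much for 0. The median growth was 2.12 times, and the largest was 20.1 times for MSTRG.266233, on 5 remaining reads. On the log2(FPKM + 1) scale values this far under 1 FPKM carry little weight, and 30 members were called higher with or without the library. The median change from neonatal to prepuberty went from 0.07 to 0.00 without it. Whether prepuberty replicate 1 also stood apart at other loci of low level was not tested.

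**Figure D3:**
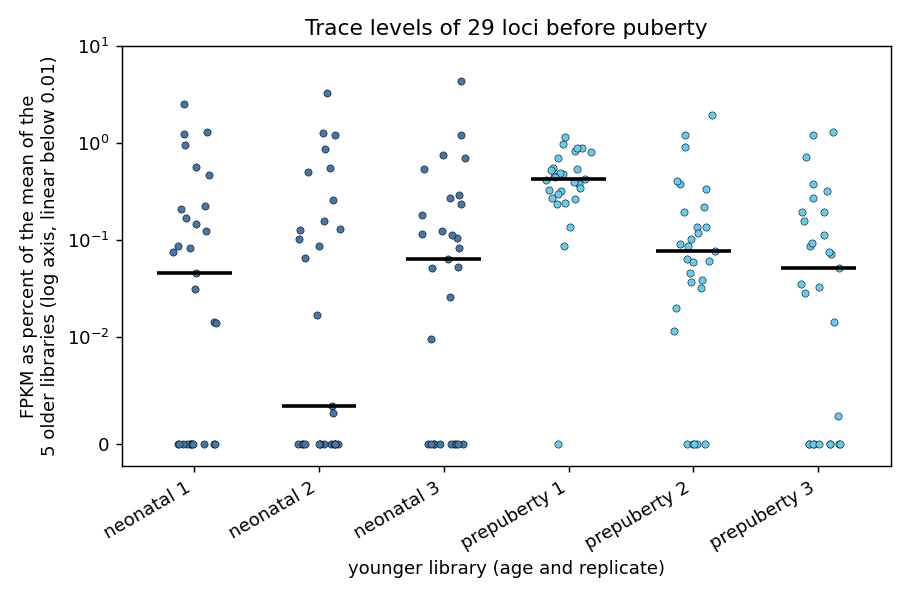
FPKM of the 29 late loci in each younger library (horizontal axis), as a percent of the same locus's mean over the 5 older libraries (vertical axis, log scale, linear below 0.01). Each point is a locus and each bar the median; the points of prepuberty replicate 1 cluster around a median of 0.425%, while the other 5 libraries have medians of at most 0.0772%.

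From puberty to postpuberty no member was called in either direction (0 of 37 by limma, also 0 by limma voom), where 1.26% of all loci were called higher and 0.139% lower. The count behind the first share, 163 loci, was 448 without puberty replicate 2, 25 with the sum without the 4 highest loci and 0 with only these ages in the fit. At an unadjusted p under 0.05, 12 members were higher (26.5% of all loci) and 1 lower (1.24%). The median change of the members was 0.32 on the log2 scale, against 0.18 for all loci. With median of ratios scaling the members' median was -0.01, with quantile normalization 0.03, and with scaling to the sum without the 4 highest loci -0.02. Puberty means of the late loci were 53.3% to 169% of the postpuberty means, with a median of 78.6%. They lay below the postpuberty mean for 27 loci and above it for MSTRG.337006 and MSTRG.167947. All 3 postpuberty libraries exceeded both puberty libraries for 16 members (35.7% of all loci), and the reverse held for 3 (3.88%), MSTRG.180257, MSTRG.168993 and MSTRG.337006.

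Without the fold limit, 7 of the 37 members had a limma adjusted p under 0.05 and a higher postpuberty level, against 12.6% of all loci. These were MSTRG.242042, MSTRG.96131, MSTRG.385640, MSTRG.140104, MSTRG.266233, MSTRG.208440 and MSTRG.176490, chosen after their values were seen. MSTRG.242042 (35343 bases) held 32.5 and 32.3 FPKM in puberty and 60.4, 56.0 and 65.9 in postpuberty (log2 change 0.88 ± 0.12 SE, limma adjusted p = 0.00368). MSTRG.96131 (28328 bases) held 38.8 and 31.1, then 64.2, 57.7 and 62.0 (log2 change 0.80 ± 0.13 SE, limma adjusted p = 0.00615). In both, all postpuberty values were above all puberty values. There were 2 such members with median of ratios scaling, 1 with quantile normalization and 0 with TPM, a pseudocount of 0.1 or a fit restricted to these 5 libraries.

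Late loci were of very different lengths. Implied lengths were under 1000 bases for 13 of the 29 and over 10000 bases for 7, while 25.8% and 11.4% of the tested loci were so short or so long. The 7 long loci were MSTRG.208440, MSTRG.242042, MSTRG.266233, MSTRG.96131, MSTRG.338108, MSTRG.176490 and MSTRG.265274. They changed by 0.27 to 0.88 after puberty, with a median of 0.55, and the 22 shorter late loci by -0.69 to 0.76, with a median of 0.32. In all tested loci the median was 0.20 over 10000 bases and 0.18 below. Median of ratios scaling gave 0.22 for the long and -0.00206 for the shorter late loci, and quantile normalization 0.24 and 0.02. The difference between the classes was not tested.

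By reads, the 7 long late loci took 46.9% and 51.7% of the members' total in the puberty libraries and more in postpuberty. All members together took 1.03% ± 0.0881 of a neonatal library's scaling total (SD, n = 3) and 0.901% ± 0.142 of a prepuberty one (n = 3). The share was 1.82% ± 0.0808 at puberty (n = 2) and 2.16% ± 0.0781 after it (n = 3). The listed loci as a whole took a mean of 24.2% of a neonatal total and 19.4% of a prepuberty one. Their share was lowest at puberty, at 14.4%, and was 17.1% after it. The members' higher share after puberty thus went with a higher share of all listed loci. Whether the members' part of the listed reads changed was not tested. Their summed FPKM, by contrast, was 4931 ± 549 in neonatal and 4273 ± 57.1 in postpuberty libraries. MSTRG.180257 alone took 74.7% to 81.2% of the members' reads in neonatal libraries and 11.9% to 14.9% in postpuberty. The long late loci held at most 0.0773% in neonatal and 62.3% to 63.7% in postpuberty libraries. MSTRG.208440, with the longest implied length, held 132560 reads in postpuberty replicate 1, at 68.6 FPKM.

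**Figure D4:**
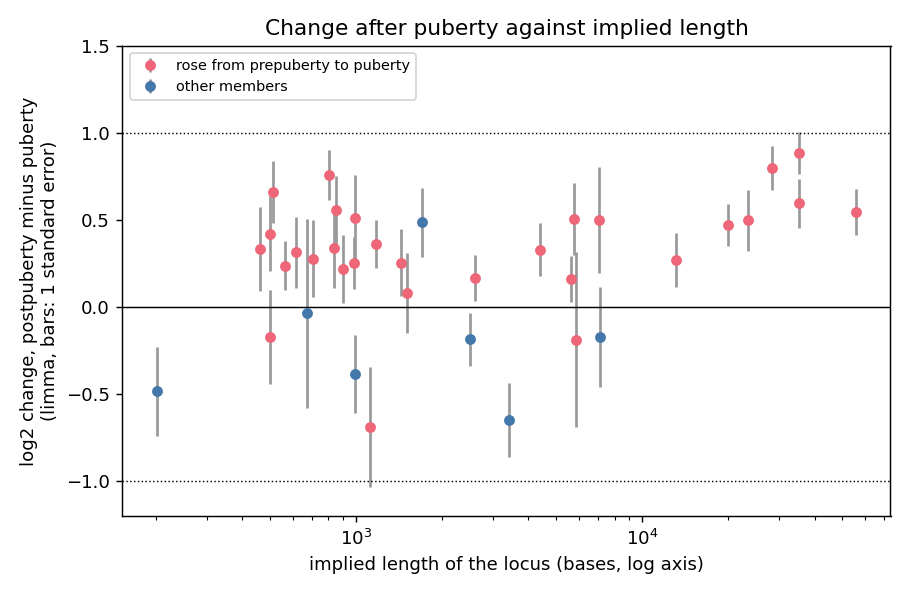
Log2 change from puberty to postpuberty (vertical axis, limma estimate, bars 1 standard error) against implied length in bases (horizontal axis, log scale) for the 30 members that rose at puberty and the 7 others. No estimate reaches the dotted lines at a log2 change of 1 or -1, though the bars of MSTRG.242042 and MSTRG.337006 cross them. The estimates of the 7 loci over 10000 bases lie between 0.27 and 0.88.

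StringTie usually numbers loci along the assembled genome, but positions were not used here, so nearness in number is not a distance. The smallest gap between members was 118 numbers. Within 5 numbers of the 30 rising members lay 40 listed loci, of which 21 were tested. Of these, 9 were called higher at puberty, 2 lower and 10 neither, beside 23.7% and 13.0% of all loci. MSTRG.337007, next to MSTRG.337006 and just under the threshold of the rule, averaged 0.115 ± 0.0940 FPKM in prepuberty (SD, n = 3), 42.2 ± 3.79 in puberty (n = 2) and 43.6 ± 2.01 in postpuberty (n = 3). Its puberty and postpuberty levels thus overlap, unlike those of MSTRG.337006. Chosen after their values were seen, MSTRG.266231, 2 below MSTRG.266233, went from a mean of 8.27 in puberty to 22.1 in postpuberty, and MSTRG.151626, next to MSTRG.151627, from 5.22 to 14.5. Loci beside MSTRG.59719 (MSTRG.59720) and MSTRG.299092 (MSTRG.299095) were called lower.

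The profile of MSTRG.180257 over the 11 libraries was most like that of MSTRG.396804 (Pearson r = 0.96 on log2(FPKM + 1)), gene11352 (0.95) and MSTRG.188956 (0.95), given as a description over libraries that share their depth and age. All 3 are far less abundant, with neonatal means of 3.11, 7.46 and 1.64 FPKM.

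Other abundant loci were also called at puberty. Of the 45 loci with a gene number and a mean of at least 20 FPKM, 21 rose and 11 fell, and of the 14 MSTRG loci with higher numbers, 1 rose and 2 fell. The difference between these sets was not tested, and all 3 were chosen by the same mean.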

How the data were processed

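RNA-seq of black goat testis was read from 11 deposited tables, 1 per library, which list FPKM per locus as made by the authors. Per the submitters' processing notes, HISAT2 2.1.0 and StringTie 2.1.1 were used. The genome build is not given in the sources used here. Ages came from the age label and replicate numbers from the sample titles.

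FPKM values were whole multiples of a per-read step, within 0.02 reads for all 24116 loci. This gave reads, scaling totals and an implied length per locus. Read intervals and floors (3 reads, 95% exact) cover counting error only.

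Tests used limma 3.58.1 (R 4.3.3, variance trend) on log2(FPKM + 1) with 1 mean per age over 11 libraries (7 residual degrees of freedom). Loci needed FPKM of 1 or more in at least 2 libraries, which kept 12954 and left out 11162. Fold changes on this scale understate changes of low loci. The fit was also run on simulated counts with a common spread for all loci, and no result here rests on that run.

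The members and lists were chosen with earlier results of these data known. Loci named singly are the 10 highest means, up to 4 largest called changes per comparison and direction, the 4 smallest ranges, the 3 largest coefficients of variation, those beside the threshold, and the 3 profiles most like the highest member; others are marked in the text as chosen after their values were seen. Alternatives were a pseudocount of 0.1, no filter, other scalings, TPM, a replicate block, only the ages compared, no trend, limma voom on recovered reads, and each library left out. No pairing of samples by replicate number was seen, though the check could not exclude it. No pair of libraries within an age agreed within counting noise (chi-square per locus 12.5 to 26.9).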

Additional observations from a re-analysis of the deposited data

How the results depend on the processing

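The 30 higher calls at puberty, and from neonatal to postpuberty testes, were 30 in number under every alternative run. These loci passed the rule through their older libraries, so that steady number follows largely from the choice and is no support for the rise. Prepuberty against neonatal gave 2 higher members with a pseudocount of 0.1, 4 with TPM, 0 with only the ages compared, 2 with voom and 0 to 1 when a library was left out, and 1 lower member with a pseudocount of 0.1 and 0 to 1 when a library was left out. Over all loci the higher calls were 107 as deposited, and 207, 994, 11 and 190 under the first 4 of these settings. Its median was 0.34 (pseudocount 0.1), 0.63 (TPM) and 0.48 (voom). At puberty, quantile normalization and the sum without the 4 highest loci each gave 5 lower members, while the lower calls over all loci went from 1681 to 2689 and 2869. With a pseudocount of 0.1 all loci had 5829 higher and 3879 lower calls there. The puberty median was 7.82 (pseudocount 0.1), 5.74 (median of ratios), 4.73 (quantile), 8.33 (TPM), 5.08 (sum without the 4 highest) and 9.03 (voom), and 5.22 to 5.37 with a library left out. The median after puberty was -0.0073 (median of ratios), 0.025 (quantile), -0.025 (sum without the 4 highest), 0.26 (replicate block), and 0.26 to 0.32 with a library left out. Members with an adjusted p under 0.05 after puberty numbered 0 (pseudocount 0.1), 2 (median of ratios), 1 (quantile), 0 (TPM), 1 (sum without the 4 highest), 3 (replicate block), 0 (only the ages compared), 4 (voom) and 5 to 7 with a library left out. Postpuberty against neonatal gave 3 lower members (median of ratios), 2 (TPM) and 5 to 6 with a library left out. Its median was 8.83 (pseudocount 0.1), 5.997 (median of ratios), 5.14 (quantile), 9.63 (TPM), 5.41 (sum without the 4 highest), 9.74 (voom), and 5.84 to 5.92 with a library left out.

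Signs turned as follows. From neonatal to prepuberty, MSTRG.180257 changed by 0.045 (median of ratios), 0.57 (TPM) and 0.052 (sum without the 4 highest), MSTRG.168993 by -0.14 (quantile), MSTRG.178184 by 0.19 (TPM), and MSTRG.161852 by 0.48 (TPM) and -0.43 to 0.053 with a library left out (highest without neonatal replicate 3). At puberty, MSTRG.168993 changed by 0.31 (median of ratios) and 0.041 (TPM), MSTRG.178184 by 0.47 (median of ratios), 0.20 (TPM), 0.012 (without prepuberty replicate 3) and -0.36 to 0.12 with a library left out (highest without puberty replicate 3), and MSTRG.180257 by 0.74 (quantile). After puberty, MSTRG.16 changed by 0.10 (quantile), 0.062 (replicate block), 0.071 (without postpuberty replicate 1) and -0.41 to 0.34 with a library left out (highest without puberty replicate 2). From neonatal to postpuberty, MSTRG.168993 changed by 0.38 (median of ratios) and 0.96 (TPM), and MSTRG.180257 by 0.74 (quantile). For MSTRG.168993 the quantile value there was -1.64, a lower call. The cause was not tested.

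Same-numbered samples deviated with correlations of -0.12 to 0.05 (15 pairs), and 0 of 11 libraries correlated best with their own number, so the replicate block is only an alternative. The median puberty change of all loci was 0.26 as deposited and 0.50, 0.06, 0.91 and 0.08 under median of ratios, quantile, TPM and the sum without the 4 highest loci. Trace levels before puberty rest on few reads.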
